A study of Mus musculus with 6 samples.

Results

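Imprinted genes that set the pace of growth were examined in endothelial cells (EC) sorted from mouse lung. The group was chosen by name and comprised 10 genes, of which 9 (H19, Igf2, Igf2r, Peg3, Plagl1, Cdkn1c, Grb10, Meg3 and Mest) had rows in the RPKM table of 12623 genes. Dlk1 had no row and was not analysed here. EC from 3 infant and 3 young adult C57BL/6N libraries were compared. Infant mice were 8 to 10 days old and young adult mice 8 to 12 weeks old, and neither group received a treatment or carried an engineered allele. According to the methods of the study, cells were positive for CD31 and CD34, and negative for leukocyte, lymphatic and erythroid surface markers. Values are RPKM, read numbers scaled to transcript length and to the mapped reads of a library, and library values are listed in the order of replicates 1, 2 and 3. Infant replicate 2 stood apart from the other infant libraries, with 30.7% of their summed fibroblast marker level. The methods of the study describe female mice, yet Y-linked transcripts were found in all infant libraries and were listed at 0 for young adults, so that age and the sex of the animals cannot be told apart.

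An imprinted gene is transcribed mainly from the copy inherited from one parent. The choice is fixed by DNA methylation laid down in the egg or the sperm and kept in body cells. Paternally expressed members of this network (Igf2, Peg3, Plagl1, Mest and Dlk1) are mostly known as promoters of fetal growth, and maternally expressed members (H19, Igf2r, Cdkn1c, Grb10 and Meg3) as restraints on it. Many of them are known to be high before birth and to be switched down together in several organs after birth, when growth of the body slows. RPKM pools both parental copies, so the expressed allele was not measured here, and the labels paternal and maternal are background.

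All 9 genes had a lower mean in young adult EC, as did 58.6% of all genes. Of these, 7 fell (Mest, Peg3, Meg3, Plagl1, Grb10, Cdkn1c and H19), with a limma adjusted p under 0.05 and a change of more than 0.81 on the log2(RPKM + 1) scale, and 0 rose. Across all 12458 genes tested, 8.10% were called lower and 3.33% higher. Igf2 and Igf2r had adjusted p under 0.05 but stayed under the change required on this scale, where the added 1 shrinks the changes of genes at low RPKM such as Igf2. Thus 9 of 9 members passed the p threshold alone in the downward direction, against 16.2% of all genes. In 9 of 9 members each infant library lay above each young adult library, which held for 27.1% of all genes, and for 43.4% when either group could be the higher. The median log2 fold change of the 9 members was -1.48, and -1.49 without H19, beside -0.07 over all genes tested. By expressed allele, 3 of 4 paternally and 4 of 5 maternally expressed members were called lower.

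**Figure D1:**
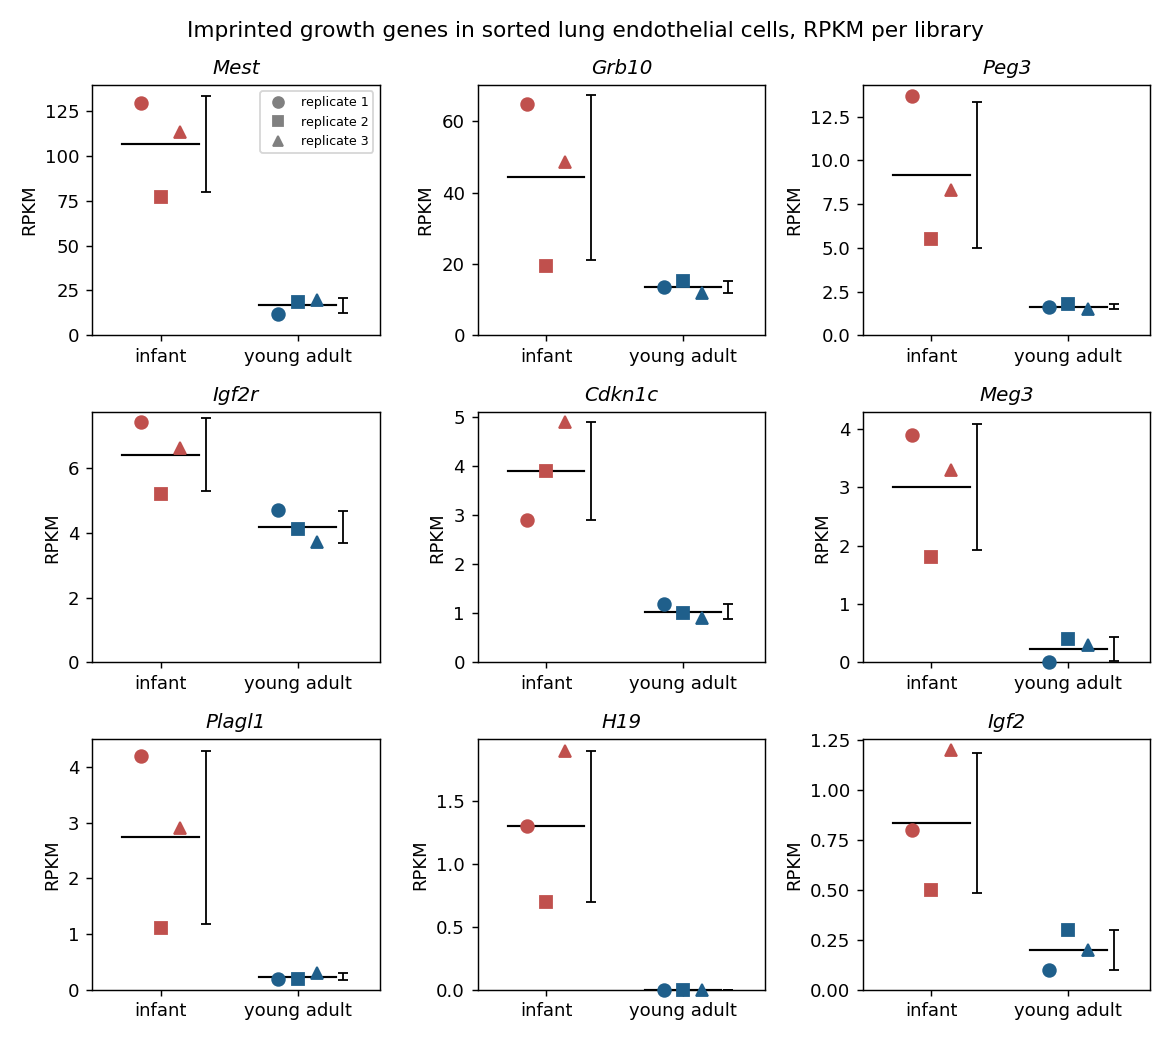
RPKM (y axis, linear, each panel with its own range) of the 9 imprinted growth genes in 3 infant libraries (red) and 3 young adult libraries (blue), with symbols for the replicate number, a line at the mean and a bar of 1 SD. In every panel the infant libraries lie above the young adult libraries, and infant replicate 2 (square) is the lowest infant library in 8 of the 9 panels, all but Cdkn1c.

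Promoter sequences are shown for members that were called lower, because imprints are carried by methylated CpG dinucleotides and several imprints of this group lie at or near the start of the gene. RefSeq (GRCm38.p6) gave windows for 7 of the 9 genes, and H19 and Cdkn1c had none. Each line gives the 250 bases before a transcript start, 5′ to 3′ on the strand of the gene, with every CpG in capitals.
Mest, chr6:30737800-30738049, plus strand: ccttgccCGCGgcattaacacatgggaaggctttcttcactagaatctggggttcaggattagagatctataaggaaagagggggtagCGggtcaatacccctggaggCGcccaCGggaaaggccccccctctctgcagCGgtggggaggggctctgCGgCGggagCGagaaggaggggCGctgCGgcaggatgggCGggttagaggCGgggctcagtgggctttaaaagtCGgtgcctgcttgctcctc
Plagl1, chr10:13090582-13090831, plus strand: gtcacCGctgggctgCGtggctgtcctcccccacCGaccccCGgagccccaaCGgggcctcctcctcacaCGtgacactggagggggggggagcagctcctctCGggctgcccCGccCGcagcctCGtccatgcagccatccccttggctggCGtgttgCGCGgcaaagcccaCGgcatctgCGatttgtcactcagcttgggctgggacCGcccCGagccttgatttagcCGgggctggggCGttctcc
Peg3, chr7:6730420-6730669, minus strand: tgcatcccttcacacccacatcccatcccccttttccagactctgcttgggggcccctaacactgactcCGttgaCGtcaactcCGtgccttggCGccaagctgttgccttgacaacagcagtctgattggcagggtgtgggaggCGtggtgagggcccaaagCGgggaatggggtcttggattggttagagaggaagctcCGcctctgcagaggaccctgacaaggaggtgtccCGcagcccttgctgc
Meg3, chr12:109540746-109540995, plus strand: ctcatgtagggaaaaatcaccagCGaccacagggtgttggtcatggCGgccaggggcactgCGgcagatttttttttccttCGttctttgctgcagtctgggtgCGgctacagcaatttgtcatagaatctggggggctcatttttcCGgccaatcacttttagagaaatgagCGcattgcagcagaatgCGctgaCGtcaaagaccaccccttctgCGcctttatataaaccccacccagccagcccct
Grb10, chr11:12037421-12037670, minus strand: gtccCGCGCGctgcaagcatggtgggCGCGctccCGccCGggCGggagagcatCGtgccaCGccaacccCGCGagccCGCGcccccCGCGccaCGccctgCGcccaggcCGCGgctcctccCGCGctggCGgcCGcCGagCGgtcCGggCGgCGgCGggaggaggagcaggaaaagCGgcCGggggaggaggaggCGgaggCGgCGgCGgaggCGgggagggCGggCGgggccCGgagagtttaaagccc
Grb10, chr11:12027972-12028221, minus strand: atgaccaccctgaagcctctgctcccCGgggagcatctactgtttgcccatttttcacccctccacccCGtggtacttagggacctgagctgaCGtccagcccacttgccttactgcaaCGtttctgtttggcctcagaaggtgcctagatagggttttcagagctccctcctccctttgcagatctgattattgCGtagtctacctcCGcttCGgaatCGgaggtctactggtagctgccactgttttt

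The upstream start of Grb10 followed the window with the densest CpGs, 40 in 250 bases, a number that 98.9% of the 32851 RefSeq windows did not exceed. Its downstream start followed a window with 8. Plagl1 had 19 CpGs and Peg3 8, beside a median of 6 over all windows. For Mest and Meg3 the window richer in CpGs is shown, with 14 and 10, and the other window of each had 7 and 0. The hexamer TGCCGC, which the imprint-protecting protein ZFP57 is known to bind when its CpG is methylated, was searched on both strands. It occurred 2 times in the Mest window shown, 1 time in that of Plagl1 and 1 time in the Meg3 window shown, and in 8.68% of all windows. The windows of Peg3 and Grb10 and the other windows of Mest and Meg3 held 0. The YY1 motif GCCATNTT, present in 3.91% of windows, and the G-rich consensus of the PLAGL1 protein, present in 0.07%, were in none of the 6 sequences shown. As only TGCCGC matched, no matches of different motifs overlapped. A match describes letters in these windows, and binding and methylation were not analysed here.

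Levels spanned a wide range. RPKM is scaled by transcript length, so genes can be ranked on it. In infant EC the order was Mest, Grb10, Peg3, Igf2r, Cdkn1c, Meg3, Plagl1, H19 and Igf2. The libraries of Mest and Grb10 were apart from each other and from those of the next gene. Peg3 and Igf2r overlapped, as did each neighbouring pair from Cdkn1c down to Igf2. In young adult EC Mest and Grb10 still led but now overlapped, Igf2r had moved above Peg3 without overlap, and Plagl1, Meg3 and Igf2 overlapped one another near the bottom. H19 was at 0 in each young adult library and Meg3 in 1 of them. Of the 9 genes, 5 stayed under 5 RPKM in every library. For these the rounding step of 0.1 RPKM is not negligible.

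The growth factor gene Igf2 (chromosome 7, 142650768 to 142666816) encodes a fetal ligand of the IGF1 and insulin receptors. It stood at 0.8, 0.5 and 1.2 RPKM in the infant libraries, against 0.1, 0.3 and 0.2 in those of young adults. It was thus the least abundant member in infant EC, and the lowest infant library was 0.2 RPKM above the highest young adult one. The log2 fold change was -0.60 ± 0.18 (SE, n = 3 each, limma adjusted p 0.0493), short of the threshold on the log2(RPKM + 1) scale. The ratio of the group means was 0.24, below those of Cdkn1c (0.265) and Grb10 (0.306), which were called at higher RPKM. The 3 deposited Igf2 rows, which start at different promoters, differed by at most 0.1 RPKM in any library, so promoter use could not be read from them.

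H19 (chromosome 7, 142575530 to 142578146), a noncoding RNA that lies 72.6 kb from Igf2 and shares enhancers with it on the other parental copy, measured 1.3, 0.7 and 1.9 RPKM in infant replicates 1 to 3. It was listed at 0.0 in all 3 young adult libraries. No fold change is given against a group listed at 0. The difference in log2(RPKM + 1) was -1.17 ± 0.21 (SE), a value set by the pseudocount of 1, with a limma adjusted p of 0.00907. The log2 ratio of H19 to Igf2, with 1 added to each RPKM, was 0.35, 0.18 and 0.40 in infant and -0.14, -0.38 and -0.26 in young adult libraries. All infant ratios were above all young adult ratios, and the difference of -0.57 had an exact two-sided permutation p of 0.1, the smallest that 3 against 3 libraries can give, or 0.2 adjusted over the 2 ratios tested. At these levels the ratio rests on values within 2 RPKM of zero, and with H19 at 0 the young adult ratio holds only Igf2 and the pseudocount. The difference was -2.09 with a pseudocount of 0.1 and -0.16 with a pseudocount of 5.

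Igf2r (chromosome 17, 12682406 to 12769706) encodes the receptor that takes up IGF2 for degradation in lysosomes and also sorts lysosomal enzymes. It stood at 7.4, 5.2 and 6.6 RPKM in the infant libraries, against 4.7, 4.1 and 3.7 in those of young adults. The groups were apart by 0.5 RPKM, and the young adult mean was 0.651 times the infant mean, the smallest relative change among the 8 members with a ratio. The log2 fold change was -0.51 ± 0.14 (SE, limma adjusted p 0.0336), under the fold threshold. The log2 ratio of Igf2 to Igf2r averaged -2.02 ± 0.22 for infants against -2.10 ± 0.23 for young adults (SD, n = 3 each), a difference of -0.09 with an exact two-sided permutation p of 0.7, adjusted 0.7. This difference was smaller than the spread of either group, and its sign changed to 0.03 without infant replicate 3 and to 0.049 without young adult replicate 1. It was -1.02 with a pseudocount of 0.1 (exact permutation p 0.1) and 0.15 with a pseudocount of 5 (exact permutation p 0.3), so its size and sign depended on the pseudocount.

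Mest (chromosome 6, 30733506 to 30748466), which encodes a hydrolase of the endoplasmic reticulum and is paternally expressed, was the most abundant member and had the largest change of the 9 on the log2(RPKM + 1) scale. With a pseudocount of 0.1, H19, Meg3 and Plagl1 changed more, and the ratios of means of Meg3 and Plagl1 were also lower. It stood at 129.6, 77.3 and 113.2 RPKM in the infant libraries, against 11.9, 18.4 and 19.6 in those of young adults. The lowest infant library was 57.7 RPKM above the highest young adult library. Mest fell from 106.7 ± 26.7 to 16.6 ± 4.14 RPKM (SD, n = 3 each), or 0.156 times, with a log2 fold change of -2.61 ± 0.24 (SE, limma adjusted p 0.000998). The call held under every alternative that was tried. The 3 Mest rows kept nearly the same proportion in all libraries, the highest being 1.08 to 1.09 times the lowest, so the upstream and downstream starts were not resolved.

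Grb10 (chromosome 11, 11930499 to 12037428) encodes an adaptor that binds the insulin and IGF1 receptors and damps their signal. It stood at 65.0, 19.4 and 48.7 RPKM in the infant libraries, against 13.6, 15.2 and 11.9 in those of young adults. Infant replicate 2 lay only 4.2 RPKM above the highest young adult library, far from the other infant libraries. Grb10 fell by 1.48 ± 0.38 on the log2(RPKM + 1) scale (SE, limma adjusted p 0.028), and the ratio of the means was 0.306. Its call was lost with robust eBayes and on leaving out any 1 library other than infant replicate 2, thus in 5 of 6 such fits. Without infant replicate 2 it held, with a log2 fold change of -1.98. Over all alternatives the adjusted p ranged from 6.45e-05 to 0.0881.

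Peg3 and Plagl1 encode zinc finger proteins, and PLAGL1 is a transcription factor known to act on other genes of this network. Peg3 (chromosome 7, 6703892 to 6730462) stood at 13.7, 5.5 and 8.3 RPKM in the infant libraries, against 1.6, 1.8 and 1.5 in those of young adults. The young adult libraries were tight and the infant libraries spread, yet the lowest infant value was 3.37 times the young adult mean. Peg3 fell by 1.87 ± 0.26 on the log2(RPKM + 1) scale (SE, limma adjusted p 0.00402), a ratio of 0.178. Plagl1 (chromosome 10, 13090832 to 13131694) stood at 4.2, 1.1 and 2.9 RPKM in the infant libraries, against 0.2, 0.2 and 0.3 in those of young adults. Only infant replicate 2 came near the young adult libraries. Plagl1 had a log2 fold change of -1.503 ± 0.30 (SE, limma adjusted p 0.0131), a ratio of 0.0854, and lost its call when young adult replicate 1 or 2 was left out, with an adjusted p of at most 0.0587 over all alternatives.

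Cdkn1c (chromosome 7, 143458339 to 143461059) encodes p57, an inhibitor of cyclin-dependent kinases that holds cells out of division. It stood at 2.9, 3.9 and 4.9 RPKM in the infant libraries, against 1.2, 1.0 and 0.9 in those of young adults. Among the members this was the exception in the infant group, because replicate 2 equalled the mean of replicates 1 and 3. Cdkn1c fell from 3.9 ± 1.0 to 1.03 ± 0.153 RPKM (SD, n = 3 each), or 0.265 times, with a log2 fold change of -1.25 ± 0.17 (SE, limma adjusted p 0.00323). The call was made in each fit that left out 1 library.

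Meg3 (chromosome 12, 109540996 to 109571729), a maternally expressed noncoding RNA from the Dlk1 cluster, stood at 3.9, 1.8 and 3.3 RPKM in the infant libraries, against 0.0, 0.4 and 0.3 in those of young adults. The groups were separated by 1.4 RPKM. Meg3 fell by 1.67 ± 0.24 on the log2(RPKM + 1) scale (SE, limma adjusted p 0.00401), with a ratio of means of 0.0778. A ratio to Dlk1 could not be formed without a Dlk1 row.

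**Figure D2:**
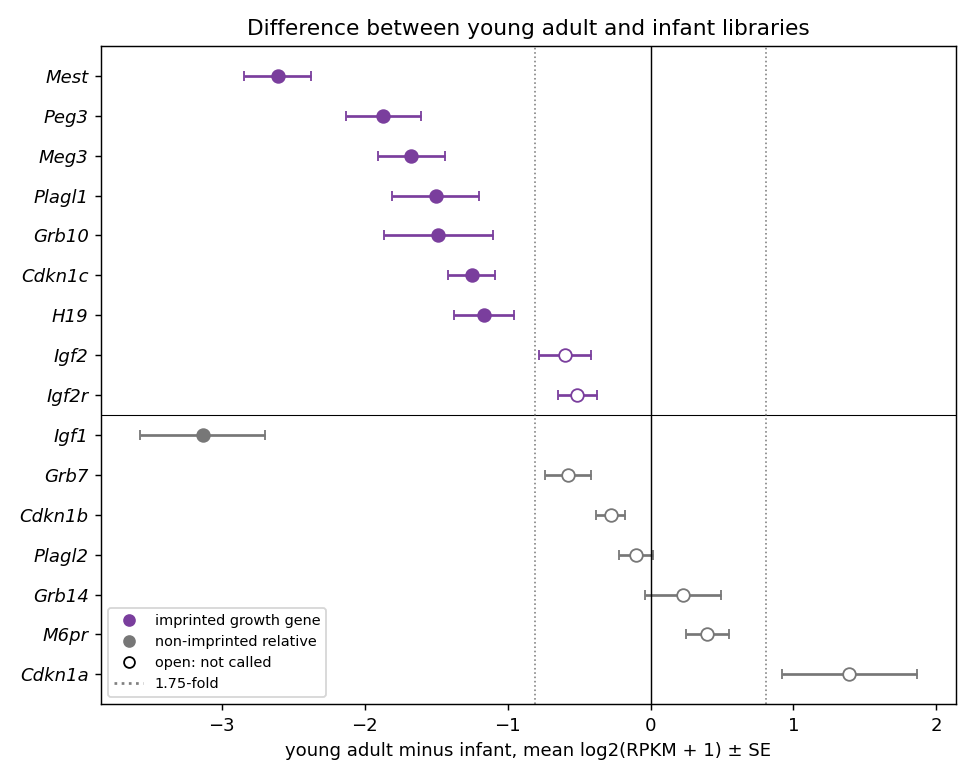
Difference between young adult and infant libraries in mean log2(RPKM + 1) (x axis) with its standard error from limma for the 9 imprinted growth genes (purple) and 7 non-imprinted relatives (grey). Filled points were called, open points were not, and dotted lines mark the fold threshold. The imprinted growth genes all lie below 0, from -2.61 for Mest to -0.51 for Igf2r, while the relatives lie on both sides; the value of H19 is set by the pseudocount.

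Relatives of the members that are not imprinted were examined beside them. Of the 9 named, 7 were tested and 1, Igf1, was called lower, beside 8.10% of all genes tested. Igf1, which encodes the main growth factor of postnatal life, stood at 18.1, 4.3 and 15.8 RPKM in the infant libraries, against 0.2, 0.5 and 0.4 in those of young adults (log2 fold change -3.13 ± 0.44, limma adjusted p 0.00396). Its change was larger than that of any member on this scale. The other CDK inhibitor genes of the p57 family did not pass: Cdkn1b, which encodes p27, measured 7.83 ± 0.808 and 6.27 ± 0.379 RPKM (SD, n = 3 each, limma adjusted p 0.0861), and Cdkn1a, which encodes p21, stood at 24.7, 85.5 and 23.6 RPKM in the infant libraries, against 76.2, 136.5 and 92.0 in those of young adults (log2 fold change 1.39 ± 0.47, adjusted p 0.0653). For Cdkn1a, infant replicate 2 lay among the young adult libraries.

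M6pr, which encodes the smaller mannose 6-phosphate receptor that does not bind IGF2, had means of 37.6 ± 7.12 and 49.3 ± 3.47 RPKM (SD, n = 3 each, limma adjusted p 0.0865). The adaptor genes Grb7 (-0.58, adjusted p 0.0358) and Grb14 (0.23, adjusted p 0.556) and the zinc finger gene Plagl2 (-0.10, adjusted p 0.569) completed the list. Grb7 had means of 1.27 RPKM in infants and 0.533 in young adults, with each infant library above each young adult library. It stayed under the threshold on the log2(RPKM + 1) scale, where the added 1 shrinks changes at low RPKM. A further list held 10 genes for IGF and insulin receptors, their substrates, Igf2 mRNA-binding proteins and their regulators. Of these, 4 were tested (Igf1r, Insr, Irs1 and the chromatin protein gene Hmga1). Called lower was 1, beside 8.10% of all genes tested. This was Irs1, an adaptor of both receptors (-1.36 ± 0.13, limma adjusted p 0.00122). It stood at 13.2, 15.4 and 11.1 RPKM in the infant libraries, against 4.2, 4.3 and 5.0 in those of young adults. Irs1 was highest in infant replicate 2, the infant library in which 8 of the members were lowest.

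Imprinted genes outside the growth group were read in the same way. Of 54 such genes named, 29 were tested, with a median log2 fold change of -0.22. Of these 5 were called lower (17.2%) and 0 higher, beside 8.10% and 3.33% of all genes tested. Among 13 paternally expressed genes, 2 were called lower. Ndn, which encodes the growth suppressor necdin, stood at 12.7, 8.9 and 12.7 RPKM in the infant libraries, against 3.4, 5.2 and 4.7 in those of young adults (-1.19 ± 0.18, limma adjusted p 0.00456), and the amino acid transporter gene Slc38a4 fell by 1.25 ± 0.31 (adjusted p 0.0242). Impact (0.47, adjusted p 0.021) and Peg13 (0.55, adjusted p 0.0222), named after their values were seen, were higher with an adjusted p under 0.05 but under the fold threshold. Without a fold threshold, 8 of the 29 other imprinted genes were lower and 2 higher at an adjusted p under 0.05.

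Among 16 maternally expressed genes, 3 were called lower. Cd81, which encodes a tetraspanin of the cell surface and is known as imprinted in the placenta, stood at 368.1, 147.7 and 314.6 RPKM in the infant libraries, against 91.6, 92.0 and 84.7 in those of young adults (-1.52 ± 0.31, limma adjusted p 0.0135). The proteoglycan gene Dcn fell by 1.37 ± 0.35 (adjusted p 0.0285) and Ppp1r9a fell by 1.05 ± 0.20 (adjusted p 0.0118). Among infant libraries Dcn was highest in replicate 2, at 19.9 RPKM against 7.6 and 8.0, the opposite order to Cd81.

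**Figure D3:**
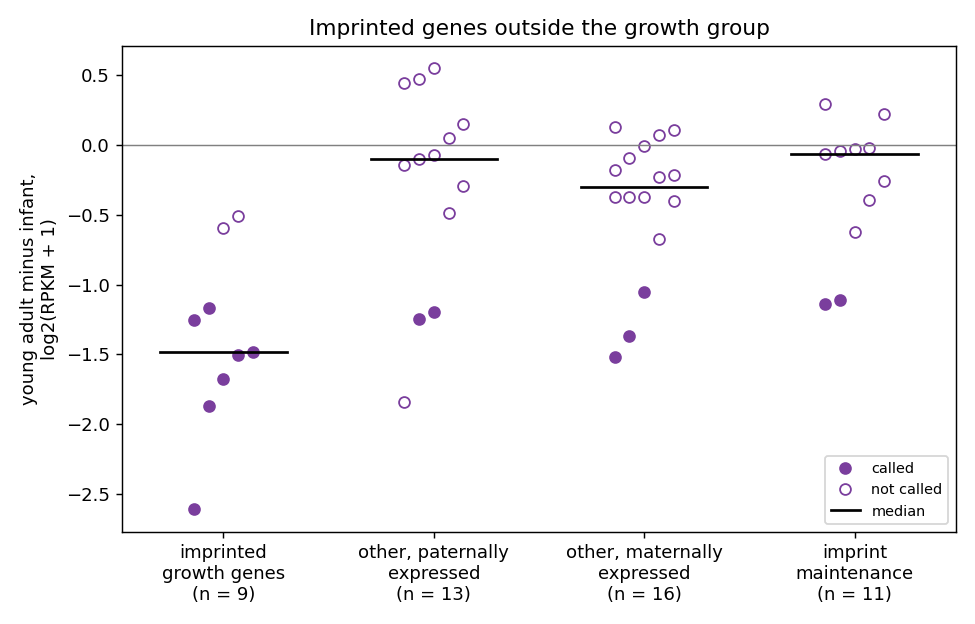
Young adult minus infant difference in mean log2(RPKM + 1) (y axis) for each gene of the imprinted growth group, of other imprinted genes by expressed allele and of proteins that maintain imprints. Filled points were called, open points were not, and a line marks the median, which is -1.48 for the growth genes, -0.10 and -0.30 for the other imprinted genes and -0.07 for imprint maintenance.

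Genes known to protect or set imprints were described next. Of 12 named, 11 were tested, with a median of -0.07, and 0 were called higher, beside 3.33% of all genes tested. Called lower were 2, beside 8.10% of all genes tested. These were Dnmt3a, a DNA methyltransferase that sets methylation in germ cells (11.7 ± 1.55 to 4.9 ± 0.656 RPKM, SD, n = 3 each, limma adjusted p 0.00211), and Uhrf1, which guides the copying of methylation at cell division (2.2 ± 1.01 to 0.4 ± 0.1 RPKM, adjusted p 0.0155). Zfp57, which encodes the protein that binds TGCCGC (-0.63 ± 0.13, adjusted p 0.0141), and Arid4b (-0.40 ± 0.10, adjusted p 0.0223), named after their values were seen, had an adjusted p under 0.05 but smaller differences than the threshold.

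The neighbourhood of each member was then read, because imprinted genes lie in clusters. Within 500 kb of the 9 members, 47 tested genes that were on no imprinted list were found, with a median log2 fold change of 0.02. Of these 6 were called lower and 2 higher, beside 8.10% and 3.33% of all genes tested. Near H19 and Igf2, the leukocyte gene Lsp1 (-2.93 ± 0.63, limma adjusted p 0.0161) and the muscle troponin gene Tnnt3 (-1.02 ± 0.20, adjusted p 0.0118) were lower, as was R74862 (-1.11 ± 0.23, adjusted p 0.0144), and near H19 Dusp8 was higher (means of 9.23 and 19.6 RPKM, adjusted p 0.00453). R74862 overlaps Cd81 and can share reads with it. Tnfrsf26 near Cdkn1c (-0.83), Ddc near Grb10 (-1.46) and Begain near Meg3 (-1.25) were also called lower, and 2210408F21Rik near Mest higher (0.84). No neighbour of Igf2r, Peg3 or Plagl1 was called, out of 10, 6 and 7 tested, numbers too small to set against the shares over all genes. The 10 of Igf2r include Airn, which is on an imprinted list.

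For each member the genes with the most similar profile were listed, by the root mean square difference between centred log2(RPKM + 1) values over the 6 libraries, among 6980 genes with a mean of at least 5 RPKM. The age difference shapes every such match. Because the added 1 shrinks changes at low RPKM, a low member can match a gene with a smaller fold change. Meg3, at 3.9, 1.8 and 3.3 RPKM in infants against 0.0, 0.4 and 0.3 in young adults, was one case. Its nearest gene, Hmgb3, stood at 22.9, 14.6 and 22.6 RPKM against 4.4, 6.0 and 5.9. Nearest to Mest were Tpm2 (0.185), Nid2 (0.191) and Des (0.198), which encode a tropomyosin, a basement membrane protein and a muscle intermediate filament. Nearest to Grb10 were Mxra8 (0.0929), Colec12 (0.104) and Cd81 (0.128). Plagl1 was closest to Cd81 (0.10), Flna (0.124) and Gpr126 (0.136), and Peg3 to Fkbp10 (0.133), Gja1 (0.171) and Adam19 (0.174). Meg3 was closest to Hmgb3 (0.0700), Prnp (0.136) and Il1rl2 (0.145), and Cdkn1c to Lamc1 (0.180), Rftn2 (0.200) and Nid1 (0.220), of which Lamc1 and Nid1 are genes of the basement membrane. H19 was closest to Rftn2 (0.102) and Spry1 (0.122), Igf2 to Prdx5 (0.0685), Gpx7 (0.0785) and Sephs1 (0.0892), and Igf2r to Mef2c (0.0514), Ibtk (0.0528) and Abi2 (0.0608).

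Infant replicate 2 was low in most members and in summed fibroblast, mural and erythroid markers, but not in epithelial or leukocyte markers. In replicate 2 the summed RPKM of 9 members was 115.4, against 228.8 and 191.0 in infant replicates 1 and 3, or 55.0% of their mean. The 11 fibroblast markers tested, 9 of them called lower, summed to 1340, 356.3 and 979.9 RPKM in infants, against 10.9, 24.1 and 20.3 in young adults. The 11 mural markers, 10 of them called lower, summed to 251.5, 81.8 and 256.3 RPKM against 13.2, 16.7 and 19.2. Replicate 2 thus held 30.7% of the summed fibroblast and 32.2% of the summed mural marker level of the other infant libraries. For erythroid markers it held 17.5%, but for epithelial markers 151.5%, for leukocyte markers 137.2% and for the 1 mesothelial marker 180%. Single markers ranged from 3.38% (Pdgfra) to 327.3% (Lum) among fibroblast genes and from 25% (Tagln) to 89.4% (Higd1b) among mural genes. Pdgfra, a marker of fibroblasts, stood at 87.2, 2.6 and 66.8 RPKM in the infant libraries, against 0.2, 0.6 and 0.5 in those of young adults, and no fibroblast or mural marker was at 0 in all young adult libraries. The part of these cells in the members' change was not tested, and in bulk libraries fewer cells of a type and less RNA per cell cannot be told apart. The 16 endothelial markers summed to between 3788 and 5538 RPKM in infant and between 5740 and 6360 RPKM in young adult EC, with 1 called higher.

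Members followed replicate 2 to different degrees. Relative to the mean of infant replicates 1 and 3, replicate 2 held 31.0% of Plagl1, 34.1% of Grb10, 43.8% of H19, 50% of Igf2, Meg3 and Peg3, 63.7% of Mest and 74.3% of Igf2r, while Cdkn1c was at their mean. Set alone against the young adult mean, infant replicate 2 was at 7.71 times that mean for Meg3, 4.71 times for Plagl1, 4.65 times for Mest, 3.77 times for Cdkn1c, 3.37 times for Peg3, 2.5 times for Igf2, 1.43 times for Grb10 and 1.25 times for Igf2r. Without infant replicate 2, 7 members were called lower, as were 1308 of the 12394 genes tested in that fit. It was the lowest infant library for 8 members, so leaving it out could only raise their infant mean.

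**Figure D4:**
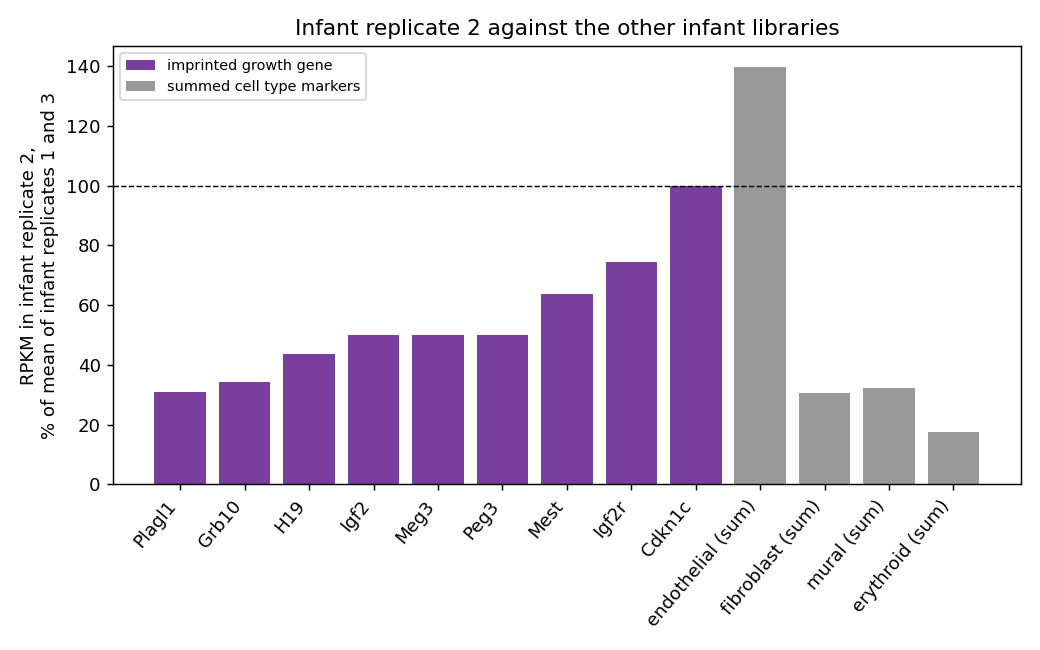
RPKM in infant replicate 2 as a percentage of the mean of infant replicates 1 and 3 (y axis, from 0, dashed line where both are equal) for each imprinted growth gene (purple) and for the summed markers of 4 cell types (grey). Members range from 31.0% (Plagl1) to equality (Cdkn1c), fibroblast and mural markers lie at 30.7% and 32.2%, and endothelial markers at 139.8%.

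Other properties of the libraries also differed by age. The 4 globin genes took 3.41% to 23.5% of all RPKM in infant and at most 0.487% in young adult libraries. Scaling without them gave 7 members called lower, beside 1186 of all 12458 genes tested. Y-linked transcripts were present in each infant library (Ddx3y at 20.6, 16.5 and 21.9 RPKM) and listed at 0.0 in each young adult library for 4 of 4 genes. Leukocyte and epithelial markers were detected in both groups, 3 of 8 and 4 of 8 being called lower, beside 8.10% of all genes tested. The 7 erythroid markers tested were all called lower, the 1 mesothelial marker was called lower, and of 4 lymphatic markers 1 was called higher.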

How the data were processed

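Total RNA of sorted lung EC was turned into cDNA from its poly(A) tails (SMARTer Ultra Low), and sequenced by the authors as paired ends. Per the methods and labels, reads were aligned to mm10 with STAR (version not given in the sources used here), counted on the RefSeq annotation and tested with DESeq2. The deposited values are RPKM, 1 row per RefSeq transcript, rounded to 1 decimal, and 98.8% of the rows reached an RPKM of 1 in a library. Depth per library is unknown, so no counting error is given.

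Group and replicate came from the library titles. The row with the highest mean was kept per gene, and 24 symbols turned into dates were restored. Log2(RPKM + 1) was tested with limma 3.58.1 in R 4.3.3 (eBayes with an intensity trend, age as the only term, Benjamini-Hochberg adjustment over the 12458 genes that reached 1 RPKM in any library). Calls needed an adjusted p under 0.05 and a change over 0.81 in log2(RPKM + 1), which is the log2 of the study's fold threshold but, through the pseudocount, demands a larger fold of genes at low RPKM. RPKM does not allow a count test. In simulated data with a log2 change of 1.5, planted only in genes at higher RPKM, the script recovered most of the changes it was given. Smaller changes, and changes in genes as low as H19, Igf2, Plagl1, Meg3 and Cdkn1c, were not simulated. Replicates are separate biological samples per the series design, and whether animals were pooled was not given in the sources used here. Gene positions and promoters are from RefSeq GRCm38.p6, the build of mm10.

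Members and gene lists (other imprinted genes, non-imprinted relatives, IGF receptors, imprint maintenance, cell type markers) were chosen with earlier results of these data known. Named are the members, the genes called in a list, all relatives, called neighbours within 500 kb and the 3 nearest profiles per member, of which 1 for H19 is not reported here. Ratios were compared with exact two-sided permutation tests. Alternatives were other pseudocounts, filters, scalings, variance models, a replicate block, the mean over transcript rows and leaving out each library.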

Additional observations from a re-analysis of the deposited data

How the results depend on the processing

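The 9 members were lower in young adult EC in all 159 recomputed values. Most of these could not have differed in direction, because each infant library lay above each young adult library for all 9. Leaving out a library, another pseudocount or another variance model cannot reverse such a difference, and only the rescalings could have done so. The number called lower, 7, was 3 with a pseudocount of 5, where Mest, Peg3 and Grb10 were called, and from 5 to 7 in the fits without 1 library. It was 5 when young adult replicate 1 or 2 was the library left out, and was within 1.5 times under every other alternative. Igf2 was called with a pseudocount of 0.1, and its adjusted p ranged up to 0.50, under quantile normalization. That scaling moved the median of all genes from -0.07 to 0.04. Over all genes 1424 were called, 29.1% of them higher, against 45.5% with quantile normalization, 3176 with no fold threshold, 578 with a pseudocount of 5, and from 842 to 1874 in the fits without 1 library. The difference in the log2 ratio of Igf2 to Igf2r was -1.02 with a pseudocount of 0.1, changed sign with a pseudocount of 5 (0.15) and ranged from -0.19 to 0.049 without 1 library. That of H19 to Igf2 was -2.09 and -0.16 with these pseudocounts. The cause of these changes was not tested. The replicate block called 7 members and 1371 genes. Same-numbered libraries did not deviate together (correlations of 0.03, -0.11 and -0.02 across genes), which gave no sign that the numbers pair them. With 3 libraries per group this cannot exclude shared handling by number. A ratio of Meg3 to Dlk1 was planned and could not be computed. RPKM below 1 sits within 10 rounding steps of 0, which limits H19, Igf2, Meg3 and Plagl1 in young adult EC.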

Other observations

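Some transcripts were also lower in young adults but ordered their libraries unlike most members. They were picked after their values were seen. Nnat, a paternally expressed gene that encodes neuronatin, stood at 7.8, 0.8 and 8.7 RPKM in the infant libraries, against 0.1, 0.7 and 0.8 in those of young adults, so that infant replicate 2 did not exceed the highest young adult library (limma adjusted p 0.0584). The fibroblast marker Lum went the other way within the infant group, at 4.1, 14.4 and 4.7 RPKM, as did Dcn.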
